A study of Homo sapiens with 9 samples.

Results

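A module of 46 genes that carry human cells over the G1/S boundary and copy their DNA was followed across 9 Affymetrix arrays of U87 cells. Of the 19775 gene symbols on the array, these 46 were chosen by name from the known machinery of S-phase entry and replication. The choice was made with earlier results of these data known, so shares set beside those of all features are descriptions only. Each gene was represented by the probe set with the highest mean signal over the 9 arrays, among probe sets annotated with that symbol alone. Every one of the 46 had such a probe set, and all 46 passed the filter on dim signals, which asked for a mean log2 value of at least 4.771. U87 is an established human glioma line. The 3 groups were cells given a duplex of miR-376a*A, cells given a duplex of miR-376a*G and cells given a control miRNA, each at 50 nM for 24 h by lipid transfection, with 3 biological replicates per group. The first 2 are called the A form and the G form below. As published, the A form is unedited, and the G form stands for the product of A-to-I RNA editing, since inosine is read as G. All groups share the line and the transfection, and no untransfected cells were analysed here.

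Cells commit to division in G1, when D-type cyclins with CDK4 or CDK6, and then E-type cyclins with CDK2, phosphorylate the retinoblastoma protein RB1 and release E2F transcription factors, whose targets include most replication genes. Before S phase the origin recognition complex, CDC6 and CDT1 load the MCM2 to MCM7 helicase on DNA, and geminin (GMNN) blocks CDT1 afterwards so that DNA is copied only once. CDC7, CDC45, MCM10 and the GINS complex turn the loaded helicase into a moving fork, where primase and polymerases alpha, delta and epsilon work with the PCNA clamp and its loader, replication factor C. U87 is known to have lost the CDKN2A and CDKN2B inhibitors of CDK4 and CDK6. CDKN2A signals were between 27.4 and 38.2 on its brightest probe set and at most 7.91 on the other ones, and CDKN2B reached at most 3.57.

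RefSeq (GRCh38.p14) lists 2 loci for the 5' arm of miR-376a, the current name of miR-376a*. They lie at chr14:101040788-101040809 and chr14:101040080-101040100 on the plus strand. Their mature sequences are shown because the duplexes derive from this arm, with the seed (bases 2 to 8) in capitals. The sequences of the transfected duplexes, and the position of the base that differs between them, were not stated in the labels.
hsa-miR-376a-5p: gUAGAUUCuccuucuaugagua
hsa-miR-376a-2-5p: gGUAGAUUuuccuucuauggu

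Signals were deposited on a linear scale with a trimmed mean of about 100 on every array, and array medians lay between 18.0 and 20.4. Differences were tested as log2(signal + 16) with limma over all 20068 features, and passing means a p, adjusted by Benjamini-Hochberg, of less than 0.05. All log2 differences below are on this scale and are given ± SE, with n = 3 arrays in each group. Fold changes are taken on this scale too, so for dim genes they are smaller than the ratio of the printed signals. Precision is limited by the number of arrays. Differences had a median SE of 0.0726 over the 46 genes and of 0.101 over all features. Control replicate 1 stood apart most, with an SD of 0.122 (log2) around its group mean over the 46 genes, against 0.0861 and 0.0819 for control replicates 2 and 3 and 0.0515 to 0.0807 for the other 6 arrays. Among markers of glioma lines, VIM had signals of 2009 or more and CD44 of 1821 or more on their brightest probe sets, NES reached at most 105 and SOX2 26.1, and the astrocyte markers GFAP and S100B reached at most 2.63 and 1.98. Of the 6 glioma line markers tested, 1 passed in a comparison, CHI3L1, which was lower with the G form than in the control (-0.42) and higher with the A form than with the G form (0.36). The summed signals of 5 epithelial markers were 30.7 to 39.8 in A-form cells, 26.3 to 31.4 in G-form cells and 33.0 to 44.4 in control cells. Those of the leukocyte markers on the array were 18.7 to 26.3 in A-form cells, 10.4 to 21.9 in G-form cells and 17.2 to 26.6 in control cells. These sums are those of a few dim probe sets, and their part in the results was not tested. The 1 leukocyte marker tested, CD3E, reached at most 22.3. It passed as lower with the G form (-0.51) and as higher with the A form than with the G form (0.46). MTAP, also known to be lost in U87, reached 24.9 on its brightest probe set and was higher with the A form than with the G form (0.38). Such dim signals can thus pass.

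With the A form, the module split. Geminin and CDK6 rose more than 2-fold on their brightest probe sets, GINS2, ORC6, RFC5, POLE2, PCNA, TYMS, UNG and CCND1 rose by less, and CCNE2, MCM10, POLA2, GINS1, MCM5, CDK4, MCM2, MCM4 and POLD1 fell. Against the control, 10 of 46 genes rose (21.7%) and 9 fell (19.6%), where 10.8% of all features passed as higher and 10% as lower. In either direction 41.3% of the genes passed, against 20.8% of all features. With the filter on dim signals raised to the 60th percentile, 21 genes and 30.8% of all features passed. The median log2 difference was 0.00 for the 46 genes and 0.04 for all features. The signals of the groups did not overlap for 13 genes with higher and 14 genes with lower signals in A-form cells, where 20.7% of all features were apart and higher, 15.9% apart and lower, and 36.7% apart either way. In RNA from whole cultures a different share of cells in S phase and a different amount of RNA per cell cannot be told apart. Without control replicate 1, 11 genes rose and 11 fell, where 12% of all features passed as higher and 10.6% as lower. Among the calls that 1 array decided there, CCNE1 passed as higher without control replicate 1 (log2 difference 0.18, adjusted p = 0.0392), TK1 passed as lower without control replicate 1 (log2 difference -0.17, adjusted p = 0.0447), and E2F1 passed as lower without control replicate 1, or with centring on array medians or the stricter filter (adjusted p between 0.00413 and 0.0449). RFC3 passed as lower without G-form replicate 1, or with centring on array medians, quantile normalization, the stricter filter or the mean of the probe sets of a gene (adjusted p between 0.0166 and 0.0449). Over all features, 2164 were called higher and 2013 lower. With each array centred on its own median these counts were 1659 and 2353, while 10 of the 46 genes rose and 11 fell.

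With the G form, the module leaned upward. GMNN and CDK6 rose again more than 2-fold against the same control arrays, followed by RFC5, GINS2, ORC6, POLE2, PRIM1, MCM7, RFC4, RFC2, CCNE1, PCNA and RFC3, and CHAF1A, RB1 and MCM3 fell. In numbers, 13 of 46 genes rose (28.3%) and 3 fell (6.52%), where 11.8% of all features passed as higher and 13.1% as lower. In either direction 34.8% of the genes and 24.9% of all features passed. This excess depended on the filter. With the filter on dim signals raised to the 60th percentile, the same 16 genes passed, and 36% of all features did. Of all features, 17.3% then passed as higher and 18.8% as lower. The median log2 difference was 0.11 over the 46 genes, 33 of which had a value above 0, and -0.00 over all features. The groups did not overlap for 20 genes with higher and 6 genes with lower signals, where 18.6% of all features were apart and higher, 19.7% apart and lower, and 38.3% apart either way. Without control replicate 1, 17 genes rose and 4 fell, where 13.1% of all features passed as higher and 13.4% as lower. The genes gained there were CDC6 (log2 difference 0.18, adjusted p = 0.0317), POLA1 (log2 difference 0.40, adjusted p = 0.0239), POLA2 (log2 difference 0.17, adjusted p = 0.0422), RRM1 (log2 difference 0.14, adjusted p = 0.0304), UNG (log2 difference 0.17, adjusted p = 0.0452) and, as lower, E2F1. CDC45 passed as higher without control replicate 2 (log2 difference 0.22, adjusted p = 0.0284).

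**Figure D1:**
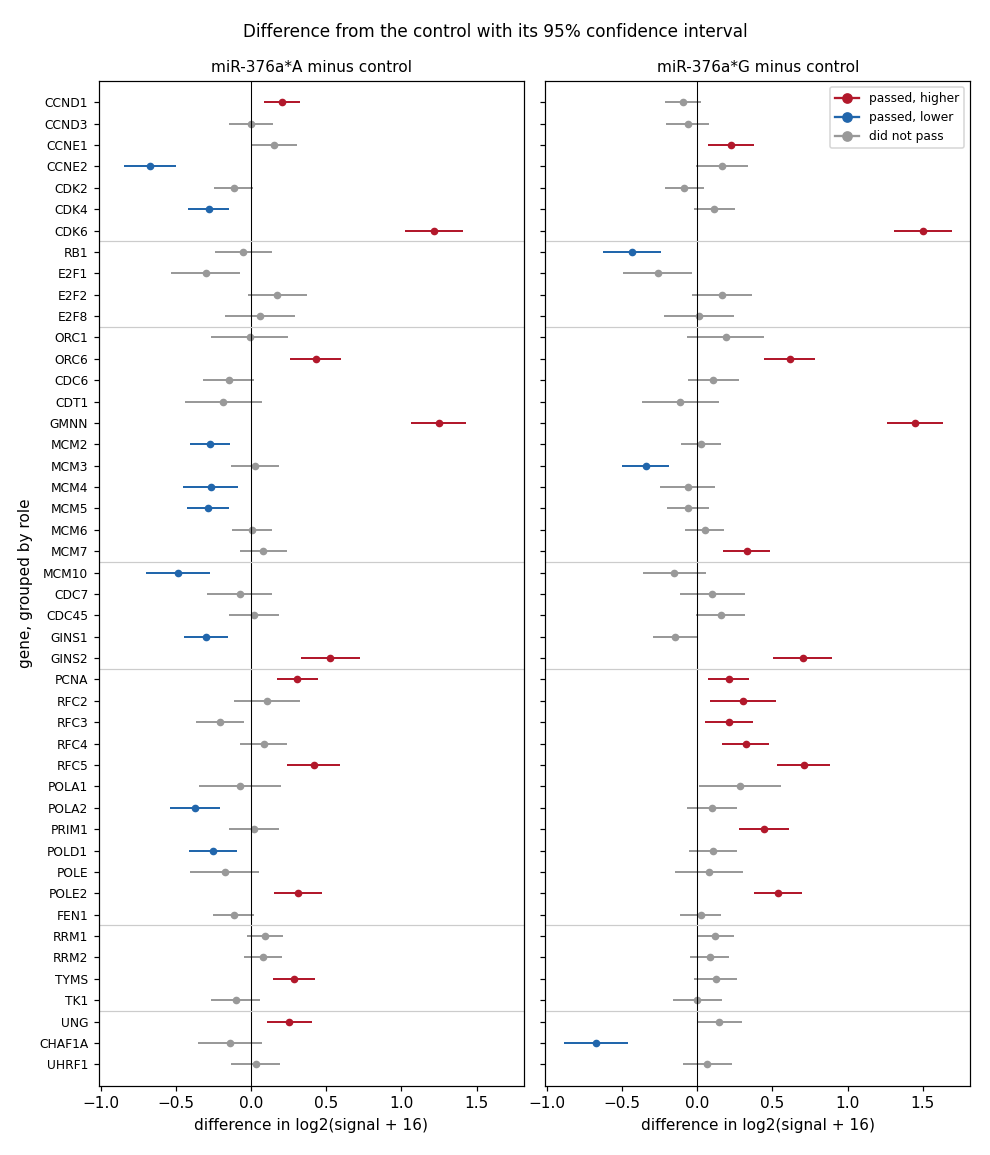
Difference of each of the 46 genes from the control, with the A form on the left and the G form on the right, as log2(signal + 16) with its 95% confidence interval, grouped by role. Colour marks genes that passed as higher or lower. In both panels GMNN and CDK6 lie above 1, and CCNE2 lies at -0.67 with the A form and at 0.16 with the G form.

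Set directly against each other, the 2 forms differed mostly one way: 15 of 46 genes were lower in A-form cells than in G-form cells (32.6%), and 4 were higher (8.7%). The lower genes were CCNE2, POLA2, PRIM1, RFC3, CDK4, POLD1, MCM10, MCM2, RFC5, CDK6, CDC6, MCM7, RFC4, POLE2 and MCM5. The higher genes were CHAF1A, RB1, MCM3 and CCND1. Of all features, 7.9% passed as lower, 10.4% as higher and 18.3% in either direction, against 41.3% of the 46 genes. With the filter on dim signals raised to the 60th percentile, 19 genes and 26.2% of all features passed, 12% of all features as lower. The median log2 difference was -0.17 over the 46 genes, 36 of which had a value below 0, and 0.03 over all features. The groups did not overlap for 26 genes with lower and 8 with higher signals in A-form cells, where 18.8% of all features were apart and lower, 23.4% apart and higher, and 42.2% apart either way. The count of lower genes was 9, 8 and 8 without A-form replicates 1, 2 and 3, and 10, 7 and 7 without G-form replicates 1, 2 and 3. Over all features the lower calls fell as well in these fits, to between 971 and 1221. The count of lower genes was 18 without control replicate 1, which enters this comparison only through the estimate of the spread, and 12% of all features were then lower. POLA1 passed as lower without A-form replicate 1, G-form replicate 1 or control replicate 1, or with centring on array medians or only the 2 groups compared in the fit (adjusted p between 0.024 and 0.0411), MCM4 without control replicate 1, or with centring on array medians or only the 2 groups compared in the fit (adjusted p between 0.00459 and 0.0395) and ORC6 without control replicate 1, or with centring on array medians or only the 2 groups compared in the fit (adjusted p between 0.0092 and 0.045). TYMS passed as higher without control replicate 1, or with only the 2 groups compared in the fit (adjusted p between 0.0119 and 0.0121). Over all features, 2086 were called higher and 1585 lower, and 1509 and 2217 with each array centred on its own median. With that centring 4 of the 46 genes were higher and 19 lower.

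**Figure D2:**
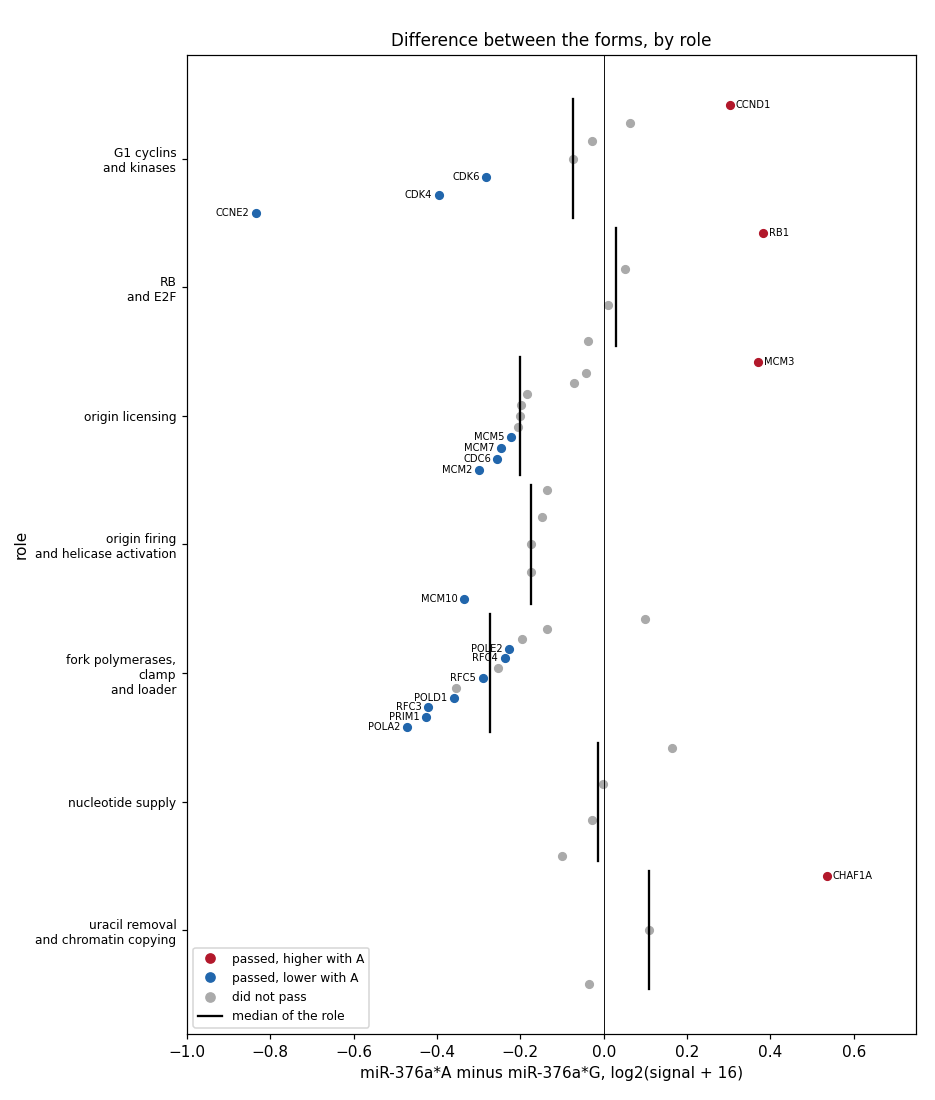
Difference between the A form and the G form for each of the 46 genes, as log2(signal + 16), with 1 point per gene in a row for its role. Among the 12 fork genes 7 passed as lower with the A form and 0 as higher, and CCNE2 is the lowest point at -0.83.

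The G1 cyclins and their kinases held the largest difference between the forms, that of CCNE2. CDK6, a kinase partner of D-type cyclins, was dim in control cells and bright with either duplex. CDK6 signals were 248, 243 and 222 in A-form cells, 283, 296 and 297 in G-form cells and 107, 85.6 and 87.04 in control cells. It rose 2.33-fold (log2 difference 1.22 ± 0.0861, adjusted p = 9.25e-07) with the A form and 2.83-fold (log2 difference 1.5 ± 0.0861, adjusted p = 1.26e-07) with the G form. Of 5 other tested CDK6 probe sets, the 2 brighter ones had log2 differences of 0.86 and 0.74 with the A form and 1.06 and 1.01 with the G form, and passed. The 3 dim ones, with mean signals of at most 17.3, had 0.19 to 0.57 with the A form, where 1 passed, and 0.13 to 0.30 with the G form, which did not pass. With the probe sets averaged CDK6 rose by 0.65 with the A form and by 0.70 with the G form. Every array of either form lay above the highest control array. The difference between the forms (log2 difference -0.28 ± 0.0861, adjusted p = 0.0388) was lost without A-form replicate 1, 2 or 3 or G-form replicate 1, 2 or 3, or with quantile normalization, no filter on dim probe sets, a variance model without an intensity trend, the mean of the probe sets of a gene or the replicate number as a block (adjusted p between 0.0504 and 0.71).

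CCNE2 encodes cyclin E2, a CDK2 partner at the start of S phase, and was lowest on the arrays of the A form. CCNE2 signals were 119.7, 136 and 119 in A-form cells, 232, 238 and 234 in G-form cells and 218, 213 and 194 in control cells. All A-form values lay under every value of the other groups, while the lowest G-form value was above the highest control value. CCNE2 fell 1.59-fold (log2 difference -0.67 ± 0.0764, adjusted p = 5.52e-05) with the A form. With the G form it did not pass (log2 difference 0.16 ± 0.0764, adjusted p = 0.143), and it was lower with the A form than with the G form by 1.78-fold (log2 difference -0.83 ± 0.0764, adjusted p = 7.93e-06). A second CCNE2 probe set gave -0.62 for the A form, 0.14 for the G form and -0.76 between the forms. The related CCNE1, the other E-type cyclin gene, was highest with the G form. CCNE1 signals were 191, 192 and 198 in A-form cells, 209, 199 and 206 in G-form cells and 181, 169 and 168 in control cells. It rose 1.17-fold (log2 difference 0.23 ± 0.0671, adjusted p = 0.0274) with the G form, with no overlap, and was at 0.15 with the A form (adjusted p = 0.132). The CCNE1 call with the G form ended without G-form replicate 1, 2 or 3 or control replicate 3, or with only the 2 groups compared in the fit (adjusted p between 0.0622 and 0.0847).

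CDK4, the other kinase of D-type cyclins, was low with the A form, where CDK6 was high. CDK4 signals were 1154, 1172 and 1167 in A-form cells, 1569.7, 1535 and 1508 in G-form cells and 1327, 1509.6 and 1427 in control cells. It fell 1.22-fold (log2 difference -0.28 ± 0.059, adjusted p = 0.00481) with the A form, did not pass with the G form (log2 difference 0.11 ± 0.059, adjusted p = 0.187), and was lower with the A form than with the G form by 1.32-fold (log2 difference -0.40 ± 0.059, adjusted p = 0.000471). CCND1, which encodes cyclin D1, was brightest with the A form. CCND1 signals were 1782, 1759 and 1711 in A-form cells, 1433, 1432 and 1386 in G-form cells and 1558, 1524 and 1462 in control cells. The 3 groups did not overlap. CCND1 rose 1.15-fold (log2 difference 0.21 ± 0.053, adjusted p = 0.015) with the A form, did not pass with the G form (log2 difference -0.09 ± 0.053, adjusted p = 0.221), and was higher with the A form than with the G form by 1.23-fold (log2 difference 0.30 ± 0.053, adjusted p = 0.00156). The call against the control ended without A-form replicate 1 or 2 or control replicate 3, or with quantile normalization or a variance model without an intensity trend (adjusted p between 0.0521 and 0.211). With the G form, CCND1 passed as lower with quantile normalization (log2 difference -0.17, adjusted p = 0.0324). A second CCND1 probe set had 0.13 with the A form and did not pass there, and had -0.22 with the G form and passed as lower.

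CDK2, the kinase partner of E-type cyclins, passed in no comparison, although every control value lay above the other 6. CDK2 signals were 753, 776 and 753 in A-form cells, 789, 775 and 763 in G-form cells and 863, 809 and 803 in control cells. Its log2 difference was -0.11 with the A form (95% interval -0.24 to 0.01) and -0.09 with the G form (95% interval -0.21 to 0.04). Cyclin D3 (CCND3) had signals between 598 and 668 on all arrays and passed in none.

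**Figure D3:**
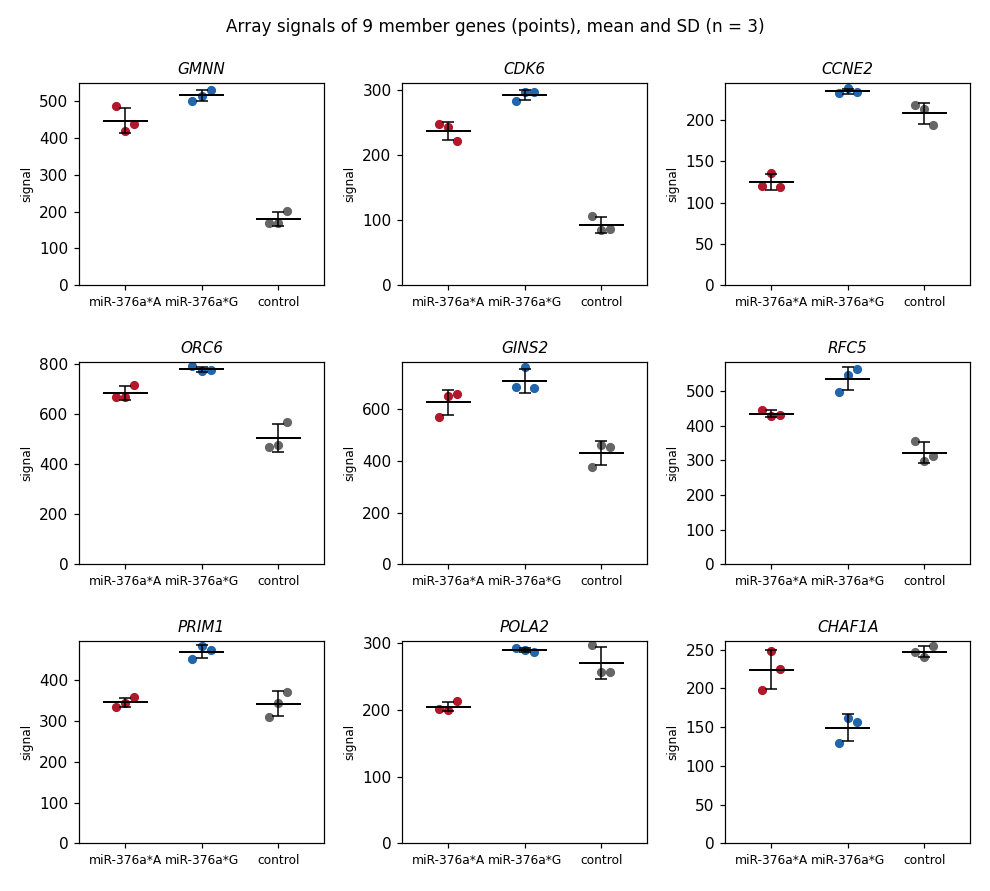
Signal on each array (linear scale from 0) for selected genes of the module, with the A form, the G form and control from left to right, points for arrays, lines for group means and error bars for the SD (n = 3). CDK6 and GMNN sit above the control with either form, and CCNE2 is low with the A form.

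In the retinoblastoma and E2F group, RB1 was lowest with the G form. RB1 signals were 426, 413 and 392 in A-form cells, 299, 311 and 323 in G-form cells and 485, 379.5 and 417 in control cells. The G-form values lay under all others, while the A form and control values overlapped. RB1 fell 1.35-fold (log2 difference -0.43 ± 0.0849, adjusted p = 0.00257) with the G form, did not pass with the A form (log2 difference -0.05 ± 0.0849, adjusted p = 0.718), and was higher with the A form than with the G form by 1.3-fold (log2 difference 0.38 ± 0.0849, adjusted p = 0.00733). A second, dim RB1 probe set (mean signal 28.7) had -0.18 with the G form and 0.12 between the forms, and passed in neither. E2F1, an activating E2F that drives S-phase genes, passed in no comparison on its brightest probe set. E2F1 signals were 95.7, 94.6 and 85.8 in A-form cells, 105, 89.5 and 90.6 in G-form cells and 97.6, 127 and 128 in control cells. Of the 6 arrays of the forms, 5 lay under the lowest control array and 1 above it. The log2 difference was -0.30 with the A form (adjusted p = 0.0574) and -0.26 with the G form (adjusted p = 0.0828). With the G form, E2F1 passed as lower without control replicate 1, or with the mean of the probe sets of a gene (adjusted p between 0.00583 and 0.02). A second E2F1 probe set of like brightness had -0.13 with the A form, which did not pass, and -0.40 with the G form, which passed as lower. E2F2 and the repressor E2F8 passed in no comparison, with signals between 160.3 and 220.2.

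Among the 11 genes of origin licensing, geminin had the largest change with the A form. GMNN signals were 485, 418 and 438 in A-form cells, 501, 515 and 529.9 in G-form cells and 168, 169 and 201 in control cells. Every array of either form had more than double the control mean. GMNN rose 2.37-fold (log2 difference 1.25 ± 0.082, adjusted p = 4.93e-07) with the A form and 2.73-fold (log2 difference 1.45 ± 0.082, adjusted p = 1.12e-07) with the G form, and the A form minus the G form was -0.20 (adjusted p = 0.114). ORC6, the smallest subunit of the origin recognition complex, rose as well. ORC6 signals were 667, 666 and 713 in A-form cells, 788, 769 and 774 in G-form cells and 467, 477 and 567 in control cells. The 3 groups stood apart, control lowest. ORC6 rose 1.35-fold (log2 difference 0.43 ± 0.0754, adjusted p = 0.00154) with the A form and 1.53-fold (log2 difference 0.61 ± 0.0754, adjusted p = 8.02e-05) with the G form. ORC1, the largest subunit, overlapped in all comparisons at 68.4 to 101 and did not pass, nor did CDT1 at 396.5 to 602.

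CDC6, the loader that works with CDT1, passed only between the forms on its brightest probe set. CDC6 signals were 386, 405 and 416 in A-form cells, 504, 485 and 462 in G-form cells and 498, 427 and 422 in control cells. The A-form values lay under those of the other groups, while the G form and control overlapped. It was lower with the A form than with the G form by 1.19-fold (log2 difference -0.26 ± 0.0754, adjusted p = 0.0334), and this call ended without A-form replicate 1, 2 or 3 or G-form replicate 1, 2 or 3, or with quantile normalization, no filter on dim probe sets, a variance model without an intensity trend or the replicate number as a block (adjusted p between 0.0507 and 0.12). Against the control CDC6 had -0.15 with the A form and 0.11 with the G form, and neither passed. A second CDC6 probe set had the same sign with the A form and between the forms, but other calls. It had -0.29 with the A form and passed as lower there, and had -0.24 between the forms, which did not pass. With the G form it had -0.05, which did not pass.

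The 6 subunits of the MCM helicase, which form 1 ring, did not all pass the same way. MCM2, MCM4 and MCM5 were low with the A form. MCM2 signals were 582, 599 and 598 in A-form cells, 747, 713 and 739.7 in G-form cells and 709.7, 748 and 699.5 in control cells. MCM5 signals were 531, 543 and 514 in A-form cells, 615, 634 and 614 in G-form cells and 679, 642 and 625 in control cells. MCM4 signals were 503, 532 and 521 in A-form cells, 608, 599 and 594 in G-form cells and 720.2, 611 and 562 in control cells. For each of these 3 genes the A-form arrays lay under all control arrays, and G-form arrays overlapped the control. MCM2 fell 1.21-fold (log2 difference -0.27 ± 0.0581, adjusted p = 0.00548) with the A form, MCM5 fell 1.22-fold (log2 difference -0.29 ± 0.0601, adjusted p = 0.00502) and MCM4 fell 1.2-fold (log2 difference -0.27 ± 0.0813, adjusted p = 0.0338). Against the G form, MCM2 was lower by 1.23-fold (log2 difference -0.30 ± 0.0581, adjusted p = 0.0031) and MCM5 by 1.17-fold (log2 difference -0.22 ± 0.0601, adjusted p = 0.0213). Without control replicate 1 the MCM4 difference was -0.17. The MCM4 call ended without A-form replicate 1, 2 or 3 or G-form replicate 2 or 3, or with no filter on dim probe sets, a variance model without an intensity trend or only the 2 groups compared in the fit (adjusted p between 0.0529 and 0.106). The MCM5 call between the forms ended without A-form replicate 1, 2 or 3 or G-form replicate 1, 2 or 3, or with the mean of the probe sets of a gene (adjusted p between 0.0515 and 0.172). A second MCM5 probe set had -0.17 with the A form and -0.05 between the forms, and passed in neither. Other tested MCM4 probe sets had -0.11, -0.13 and -0.37 with the A form, and only the last passed.

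MCM3 was low with the G form. MCM3 signals were 718, 762 and 764 in A-form cells, 557, 602 and 566 in G-form cells and 802, 698 and 704 in control cells. It fell 1.27-fold (log2 difference -0.34 ± 0.0692, adjusted p = 0.00309) with the G form, where no value reached the other groups, and had 0.03 with the A form. It was higher with the A form than with the G form by 1.29-fold (log2 difference 0.37 ± 0.0692, adjusted p = 0.00244). MCM7 was highest with the G form. MCM7 signals were 644, 715 and 712 in A-form cells, 869, 794 and 804 in G-form cells and 632, 691 and 630.4 in control cells. It rose 1.26-fold (log2 difference 0.33 ± 0.0687, adjusted p = 0.00372) with the G form and was lower with the A form than with the G form by 1.19-fold (log2 difference -0.25 ± 0.0687, adjusted p = 0.0248), a call that ended without A-form replicate 1 or 2 or G-form replicate 1, 2 or 3, or with a variance model without an intensity trend (adjusted p between 0.052 and 0.111). A second MCM7 probe set gave 0.23 with the G form and -0.26 between the forms, both of which passed. MCM6 had signals of 1164 to 1289 over all arrays, with log2 differences of 0.01 and 0.05 for the A form and the G form.

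Of the 5 genes for origin firing and helicase activation, GINS2 rose with each form while its partner GINS1 fell with the A form. Both encode subunits of the GINS complex, which joins CDC45 and the MCM ring at the fork. GINS2 signals were 570.1, 649.5 and 657 in A-form cells, 682, 761 and 680.3 in G-form cells and 378, 459.5 and 453 in control cells. GINS1 signals were 278, 280.4 and 276 in A-form cells, 299, 307 and 324 in G-form cells and 352, 355 and 331 in control cells. In each gene the forms lay wholly on one side of the control. GINS2 rose 1.44-fold (log2 difference 0.53 ± 0.0877, adjusted p = 0.00107) with the A form and 1.63-fold (log2 difference 0.70 ± 0.0877, adjusted p = 9.18e-05) with the G form. Its 2 other probe sets had mean signals of 33.5 and 17.1 and passed in neither comparison, and the GINS2 calls ended when its probe sets were averaged (adjusted p = 0.0841 with the A form and 0.51 with the G form). GINS1 fell 1.23-fold (log2 difference -0.30 ± 0.0646, adjusted p = 0.00581) with the A form and did not pass with the G form (log2 difference -0.15 ± 0.0646, adjusted p = 0.112). MCM10, which helps activate the helicase, was lowest with the A form. MCM10 signals were 157, 169 and 139 in A-form cells, 194, 196 and 209 in G-form cells and 256, 215 and 203 in control cells. It fell 1.4-fold (log2 difference -0.49 ± 0.0944, adjusted p = 0.00298) with the A form. It was lower with the A form than with the G form by 1.26-fold (log2 difference -0.34 ± 0.0944, adjusted p = 0.0268), which ended without A-form replicate 1 or 3 or G-form replicate 1, 2 or 3, or with no filter on dim probe sets (adjusted p between 0.0522 and 0.115). A second MCM10 probe set had -0.19 with the A form and did not pass there, and another had -0.59 and passed. Both passed as lower between the forms. The kinase gene CDC7 (157 to 204) and CDC45 (288 to 353) did not pass in any comparison.

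Of the 12 fork genes, 3 rose and 2 fell with the A form, and 7 rose with the G form, where all 12 had a log2 difference above 0. As shares these are 25% higher and 16.7% lower with the A form, against 10.8% and 10% of all features, and 58.3% higher with the G form, against 11.8% of all features. Between the forms 58.3% were lower with the A form, against 7.9% of all features. Their median was -0.03 with the A form, 0.25 with the G form and -0.27 between the forms. PCNA, the sliding clamp, was higher with either duplex. PCNA signals were 1055, 984 and 998 in A-form cells, 962, 907 and 964 in G-form cells and 789, 801 and 853 in control cells. All arrays of the forms exceeded the control arrays. PCNA rose 1.24-fold (log2 difference 0.31 ± 0.0602, adjusted p = 0.0031) with the A form and 1.16-fold (log2 difference 0.21 ± 0.0602, adjusted p = 0.0228) with the G form. The second of these calls ended without G-form replicate 1 or 3, or with quantile normalization, a variance model without an intensity trend or only the 2 groups compared in the fit (adjusted p between 0.0511 and 0.0889).

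Replication factor C loads PCNA on DNA. On their brightest probe sets its 4 small subunits were all higher with the G form, and RFC5 also with the A form. RFC5 signals were 447, 429 and 430.0 in A-form cells, 499, 548 and 563 in G-form cells and 358, 298 and 312 in control cells. The control was lowest and the G form highest, with no overlap. RFC5 rose 1.34-fold (log2 difference 0.42 ± 0.0775, adjusted p = 0.00225) with the A form and 1.63-fold (log2 difference 0.71 ± 0.0775, adjusted p = 3.09e-05) with the G form. A second bright RFC5 probe set had -0.09 with the A form and -0.14 with the G form and did not pass. The last one had 0.18 with the A form, which did not pass, and 0.68 with the G form, which passed. With the probe sets averaged RFC5 rose by 0.17 with the A form and by 0.42 with the G form. Between the forms RFC5 was lower with the A form (log2 difference -0.29 ± 0.0775, adjusted p = 0.0204), a call that ended without A-form replicate 2 or 3 or G-form replicate 2 or 3 (adjusted p between 0.0683 and 0.0954). RFC4 and RFC2 followed with the G form. RFC4 signals were 949, 974 and 998 in A-form cells, 1151, 1182 and 1119 in G-form cells and 825, 981 and 954 in control cells. RFC2 signals were 355, 402 and 396 in A-form cells, 490.1, 431 and 409 in G-form cells and 306, 389 and 378 in control cells. In both genes the A form overlapped the control and the G form did not. RFC4 rose 1.25-fold (log2 difference 0.32 ± 0.0693, adjusted p = 0.00464) and RFC2 1.23-fold (log2 difference 0.30 ± 0.0978, adjusted p = 0.0394) with the G form. The RFC2 call ended without A-form replicate 2 or 3, G-form replicate 1 or 2 or control replicate 1, or with no filter on dim probe sets, a variance model without an intensity trend, only the 2 groups compared in the fit or the replicate number as a block (adjusted p between 0.0541 and 0.157). On another RFC2 probe set the log2 difference was 0.33 with the G form and -0.32 between the forms, and both passed. The brightest one had -0.20 between the forms, which did not pass. RFC4 was lower with the A form than with the G form (log2 difference -0.24 ± 0.0693, adjusted p = 0.0314), which ended without A-form replicate 1, 2 or 3 or G-form replicate 1, 2 or 3, or with no filter on dim probe sets or a variance model without an intensity trend (adjusted p between 0.0601 and 0.122). Of the 4 genes, RFC3 had the largest difference between the forms. RFC3 signals were 677, 674 and 634 in A-form cells, 815, 933 and 929 in G-form cells and 811, 761 and 728 in control cells. The control lay between them without overlap. RFC3 was lower with the A form than with the G form by 1.34-fold (log2 difference -0.42 ± 0.0708, adjusted p = 0.00115). Its rise with the G form (log2 difference 0.21 ± 0.0708, adjusted p = 0.0434) was the most fragile call, and ended without A-form replicate 1, 2 or 3, G-form replicate 2 or 3 or control replicate 2 or 3, or with quantile normalization, no filter on dim probe sets, a variance model without an intensity trend, the mean of the probe sets of a gene, only the 2 groups compared in the fit or the replicate number as a block (adjusted p between 0.0586 and 0.752). With the A form it did not pass (log2 difference -0.21 ± 0.0708, adjusted p = 0.0561). A second RFC3 probe set had -0.36 with the A form and passed as lower there. It had 0.16 with the G form, which did not pass, and -0.51 between the forms, which passed. A dim one (mean signal 29.2) passed in no comparison.

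Polymerase alpha and primase lay down the first stretch of each new strand. POLA2, the accessory subunit of polymerase alpha, was low with the A form, and PRIM1, the catalytic primase subunit, was high with the G form. POLA2 signals were 201, 200.5 and 213 in A-form cells, 293, 289.9 and 287 in G-form cells and 298, 257 and 256 in control cells. PRIM1 signals were 335, 344 and 358 in A-form cells, 451, 483 and 474 in G-form cells and 310.1, 344 and 371 in control cells. POLA2 of A-form cells lay under both other groups, and PRIM1 of G-form cells lay over both. POLA2 fell 1.3-fold (log2 difference -0.37 ± 0.0737, adjusted p = 0.00333) with the A form and was lower than with the G form by 1.39-fold (log2 difference -0.47 ± 0.0737, adjusted p = 0.000654). The fall against the control ended with the mean of the probe sets of a gene (log2 difference -0.19, adjusted p = 0.0995). PRIM1 rose 1.36-fold (log2 difference 0.44 ± 0.074, adjusted p = 0.000843) with the G form, had 0.02 with the A form, and was lower with the A form than with the G form by 1.34-fold (log2 difference -0.43 ± 0.074, adjusted p = 0.00147). POLA1, the catalytic subunit of polymerase alpha, overlapped in every comparison (110.5 to 179) and did not pass.

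POLE2, a subunit of the leading-strand polymerase epsilon, rose with each form, and POLD1, the catalytic subunit of polymerase delta, fell with the A form. POLE2 signals were 244, 271 and 258 in A-form cells, 288, 303 and 322 in G-form cells and 204, 198 and 211 in control cells. POLD1 signals were 109, 111 and 115 in A-form cells, 142, 146 and 154 in G-form cells and 136, 139.7 and 132 in control cells. The 3 groups of either gene did not overlap. POLE2 rose 1.24-fold (log2 difference 0.31 ± 0.0712, adjusted p = 0.00814) with the A form and 1.45-fold (log2 difference 0.54 ± 0.0712, adjusted p = 0.000147) with the G form. Between the forms it was lower with the A form (log2 difference -0.23 ± 0.0712, adjusted p = 0.0437), which ended without A-form replicate 1, 2 or 3, G-form replicate 2 or 3 or control replicate 3, or with quantile normalization, a variance model without an intensity trend or the replicate number as a block (adjusted p between 0.0535 and 0.176). POLD1 fell 1.19-fold (log2 difference -0.25 ± 0.0705, adjusted p = 0.0228) with the A form, which ended without A-form replicate 1, 2 or 3, or with only the 2 groups compared in the fit (adjusted p between 0.0534 and 0.0779), and was lower than with the G form by 1.28-fold (log2 difference -0.36 ± 0.0705, adjusted p = 0.00331). The catalytic subunit gene POLE (57.9 to 89.9) and the flap endonuclease gene FEN1 (791 to 921) passed in no comparison.

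Of the 4 nucleotide supply genes, only TYMS, the thymidylate synthase gene, passed. TYMS signals were 1609, 1603 and 1543 in A-form cells, 1439, 1439.7 and 1364 in G-form cells and 1199, 1349 and 1350.4 in control cells. It rose 1.22-fold (log2 difference 0.29 ± 0.0615, adjusted p = 0.00574) with the A form, without overlap, and did not pass with the G form (log2 difference 0.12 ± 0.0615, adjusted p = 0.174). With the mean of its probe sets TYMS also passed with the G form (log2 difference 0.29, adjusted p = 0.0107). Its other probe sets had 0.33 and, on a dim one (mean signal 17.4), 0.42 with the G form, and both passed. With the A form they had 0.46, which passed, and 0.36, which did not. RRM2, the regulated subunit of ribonucleotide reductase, did not pass in any comparison. RRM2 signals were 2238, 2124 and 2079.6 in A-form cells, 2222, 2084 and 2141 in G-form cells and 1939, 2089 and 2057 in control cells. These values overlapped, with a log2 difference of 0.08 (95% interval -0.04 to 0.20) with the A form and 0.08 (95% interval -0.04 to 0.20) with the G form. RRM1 lay at 1203 to 1354 and TK1, thymidine kinase, at 616 to 742.

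In the last group, UNG, which removes uracil from DNA, rose with the A form. UNG signals were 339, 321 and 332 in A-form cells, 300.0, 295 and 320.2 in G-form cells and 284, 274 and 264 in control cells. It rose 1.19-fold (log2 difference 0.26 ± 0.0659, adjusted p = 0.0154), a call that ended without A-form replicate 1 or 3 or control replicate 3 (adjusted p between 0.0514 and 0.0624), and had 0.15 with the G form. CHAF1A, the large subunit of the chromatin assembly factor that deposits histones behind the fork, was low with the G form. CHAF1A signals were 198, 248 and 225 in A-form cells, 129.9, 162 and 157 in G-form cells and 247, 241 and 254 in control cells. No G-form value reached the other groups. CHAF1A fell 1.6-fold (log2 difference -0.68 ± 0.0954, adjusted p = 0.000242) with the G form and was higher with the A form than with the G form by 1.45-fold (log2 difference 0.53 ± 0.0954, adjusted p = 0.00174). Of 2 dimmer CHAF1A probe sets, one had -0.39 with the G form and passed, and the other had -0.11 and did not. With the probe sets averaged the CHAF1A difference was -0.39 with the G form and 0.29 between the forms. UHRF1, which links replication to DNA methylation, lay at 589 to 700.1 and did not pass.

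**Figure D4:**
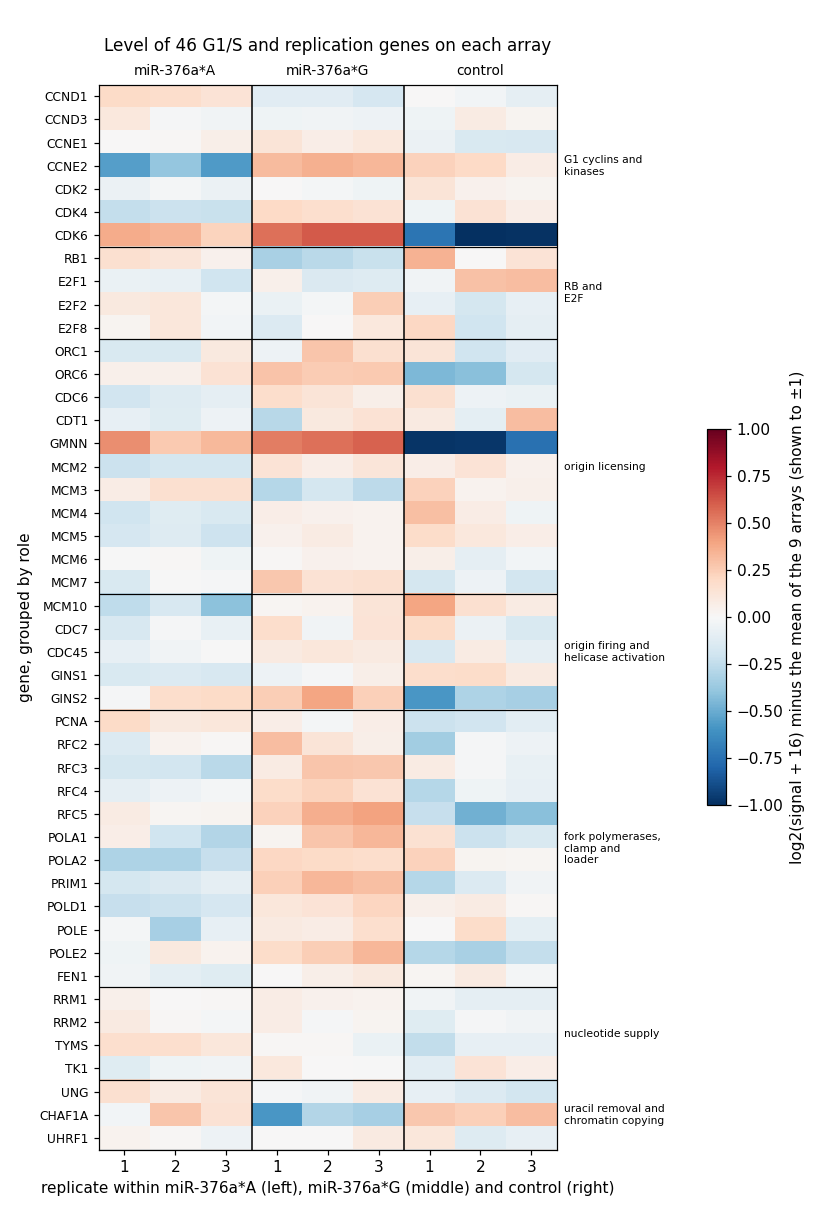
Level of each of the 46 genes on each array, as log2(signal + 16) minus the mean of the gene over the 9 arrays, with the A form, the G form and control from left to right and rows grouped by role. The GMNN and CDK6 rows are low on the 3 control arrays, and the CCNE2 row is low on the 3 A-form arrays.

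Averaged over the 46 genes, each array's level relative to the mean of all arrays was -0.04, -0.02 and -0.04 (log2) in A-form cells, 0.07, 0.10 and 0.12 in G-form cells and -0.04, -0.07 and -0.07 in control cells. For the 12 fork genes it was -0.07, -0.11 and -0.09 with the A form, 0.14, 0.19 and 0.21 with the G form and -0.09, -0.09 and -0.10 in control cells. The G-form arrays were thus highest in both averages, and A-form arrays lay near the control. Of the genes that passed and had another probe set bright enough to be tested, all the others had the same sign in 8 of 10 with the A form, 5 of 8 with the G form and 8 of 12 between the forms, and 0 had another that passed the opposite way.

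Promoter sequence was described as well. E2F targets include most replication genes, so a high share of E2F sites is built into the choice and is no separate result. RefSeq windows from 250 bases before to 50 bases after a gene start (GRCh38.p14) were held for 40 of the 46 genes. They were searched on both strands for 4 spellings of the E2F site, TTTCCCGC, TTTCGCGC, TTTGCCGC and TTTGGCGC, where overlapping matches count as separate positions. At least 1 match was found for 21 of the 40 genes (52.5%) and in 22 of their 56 windows (39.3%). Among all 11027 tested genes with such a window it was 6.36% of genes and 4.67% of windows, and among 27 genes of G2 and mitosis 11.1%. By role, the match was held by 7 of 9 licensing genes, 6 of 12 fork genes, 3 of 5 firing genes and 0 of 4 G1 cyclin and kinase genes. By direction of change, 6 of 9 genes that rose with the A form held it, 3 of 6 that fell with the A form, 6 of 13 that rose with the G form and 14 of 24 that did not pass with the G form. A match is a description of these letters and not a shown binding site. The windows of 4 genes are printed 5' to 3' with the match in capitals, because each holds a match and the genes moved apart. GINS2 and POLE2 rose with each form, and MCM2 and POLA2 fell with the A form. GINS2 holds TTTCCCGC and POLE2 TTTGGCGC on the opposite strand, and MCM2 and POLA2 hold TTTCGCGC. Over the other genes the spelling did not follow the direction. GINS1, which fell with the A form, holds the same spelling as POLE2, and MCM7, which rose with the G form, holds TTTCGCGC. The windows lie at chr16:85688905-85689204 on the minus strand, chr14:49688165-49688464 on the minus strand, chr3:127598161-127598460 on the plus strand and chr11:65261712-65262011 on the plus strand.
GINS2: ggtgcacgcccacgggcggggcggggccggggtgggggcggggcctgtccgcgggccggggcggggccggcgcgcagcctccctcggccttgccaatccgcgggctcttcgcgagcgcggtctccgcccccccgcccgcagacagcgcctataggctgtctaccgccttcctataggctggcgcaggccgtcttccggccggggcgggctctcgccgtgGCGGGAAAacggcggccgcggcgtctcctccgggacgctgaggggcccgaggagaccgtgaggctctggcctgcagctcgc
POLE2: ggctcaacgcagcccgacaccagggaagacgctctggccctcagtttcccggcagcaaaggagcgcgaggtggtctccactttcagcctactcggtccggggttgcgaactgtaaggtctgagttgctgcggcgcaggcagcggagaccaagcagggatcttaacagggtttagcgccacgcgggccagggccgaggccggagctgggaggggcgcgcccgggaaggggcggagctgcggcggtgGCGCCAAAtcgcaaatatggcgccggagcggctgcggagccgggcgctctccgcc
MCM2: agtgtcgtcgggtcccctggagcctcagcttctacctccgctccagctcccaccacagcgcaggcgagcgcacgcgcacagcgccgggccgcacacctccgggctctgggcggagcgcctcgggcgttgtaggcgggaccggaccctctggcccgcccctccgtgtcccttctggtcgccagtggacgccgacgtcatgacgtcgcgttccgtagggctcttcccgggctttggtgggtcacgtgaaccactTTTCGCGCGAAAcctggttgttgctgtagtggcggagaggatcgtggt
POLA2: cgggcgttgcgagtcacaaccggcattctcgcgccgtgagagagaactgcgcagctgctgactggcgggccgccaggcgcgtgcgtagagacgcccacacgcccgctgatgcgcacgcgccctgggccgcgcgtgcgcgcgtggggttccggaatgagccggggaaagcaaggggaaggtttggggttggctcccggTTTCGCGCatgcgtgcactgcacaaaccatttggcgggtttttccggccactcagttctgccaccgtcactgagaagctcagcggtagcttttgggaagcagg

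The match began 31 bases before the annotated start in GINS2, 5 before it in POLE2 and 53 before it in POLA2. In MCM2 a pair of overlapping matches on opposite strands lay just after the start.

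Of 24 tested genes that regulate the G1/S step from outside the module, 2 rose and 4 fell with the A form, 5 rose and 6 fell with the G form, and 2 were higher and 4 lower with the A form than with the G form. In either direction 25% of them passed with the A form, 45.8% with the G form and 25% between the forms, where 20.8%, 24.9% and 18.3% of all features passed in these comparisons. SKP2, the ubiquitin ligase subunit that targets the CDK inhibitor p27 for destruction, had the largest difference. SKP2 signals were 93.5, 104 and 113 in A-form cells, 453, 444 and 419.8 in G-form cells and 588, 458 and 444 in control cells. It fell 4.27-fold (log2 difference -2.09 ± 0.102, adjusted p = 3.68e-08) with the A form and overlapped the control with the G form (log2 difference -0.16 ± 0.102, adjusted p = 0.282). Of 2 dimmer SKP2 probe sets, both fell with the A form, and with the G form one had -0.16 and did not pass, and the other had -0.36 and passed as lower. CDKN1B, which encodes p27, passed in no comparison, with -0.03 for the A form and -0.16 for the G form. CDKN2D, an inhibitor of CDK4 and CDK6, rose with each form. CDKN2D signals were 156, 155 and 180.0 in A-form cells, 149.9, 141 and 148 in G-form cells and 56.8, 75.4 and 69.7 in control cells. It rose 2.16-fold (log2 difference 1.11 ± 0.0951, adjusted p = 5e-06) with the A form and 1.96-fold (log2 difference 0.97 ± 0.0951, adjusted p = 1.29e-05) with the G form, with no overlap. CDKN1A, which encodes the p53-responsive inhibitor p21, was low with the G form. CDKN1A signals were 724, 719 and 714 in A-form cells, 579, 516 and 537 in G-form cells and 705, 750.2 and 718 in control cells. It fell 1.32-fold (log2 difference -0.40 ± 0.0624, adjusted p = 0.000494) with the G form, had -0.01 with the A form and was higher with the A form than with the G form by 1.31-fold (log2 difference 0.39 ± 0.0624, adjusted p = 0.000748). E2F7, a repressive E2F, fell with each form (-0.77 with the A form and -0.54 with the G form). WEE1, a kinase that restrains CDKs, also fell (-0.42 with the A form and -0.80 with the G form), and its call with the A form ended without A-form replicate 3 (log2 difference -0.36, adjusted p = 0.0501). TFDP2, an E2F partner, rose by 0.62 with the G form, which ended with the mean of the probe sets of a gene (log2 difference 0.17, adjusted p = 0.0932). FBXO5, an inhibitor of the anaphase-promoting complex, rose by 0.43 with the G form and was lower with the A form than with the G form (-0.31). MYC was lower with the A form than with the G form (-0.38).

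Of 43 tested replication factors outside the module, 5 rose and 5 fell with the A form, 8 rose and 3 fell with the G form, and 3 were higher and 7 lower with the A form than with the G form. In either direction 23.3% of this list passed with the A form, 25.6% with the G form and 23.3% between the forms, near the 20.8%, 24.9% and 18.3% of all features in these comparisons. Their median log2 difference was -0.04 with the A form, 0.12 with the G form and -0.14 between the forms. POLE3, a histone-fold subunit of polymerase epsilon, was low with the A form. POLE3 signals were 588, 618 and 621 in A-form cells, 1181, 1226 and 1205 in G-form cells and 1257, 1080.3 and 1101 in control cells. It fell 1.86-fold (log2 difference -0.89 ± 0.0666, adjusted p = 1.53e-06) with the A form and was lower than with the G form by 1.95-fold (log2 difference -0.97 ± 0.0666, adjusted p = 6.28e-07). RRM2B, the p53-responsive subunit of ribonucleotide reductase, moved in opposite directions. RRM2B signals were 305, 287 and 265 in A-form cells, 93.5, 106 and 119 in G-form cells and 224, 149 and 201 in control cells. It rose 1.47-fold (log2 difference 0.56 ± 0.125, adjusted p = 0.00749) with the A form, fell 1.68-fold (log2 difference -0.75 ± 0.125, adjusted p = 0.000852) with the G form and was higher with the A form than with the G form by 2.47-fold (log2 difference 1.31 ± 0.125, adjusted p = 1.21e-05). With the A form the histone chaperone gene ASF1A rose (0.70), and ASF1B (-0.34) and the primase subunit gene PRIM2 (-0.44) fell. With the G form, DBF4, the activator of CDC7, fell (-0.76), while the mitochondrial thymidine kinase gene TK2 (0.47) and TIPIN, part of the fork protection complex (0.41), rose. Between the forms, TIPIN (-0.36) and ORC5 (-0.39), an origin recognition subunit, were lower with the A form.

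**Figure D5:**
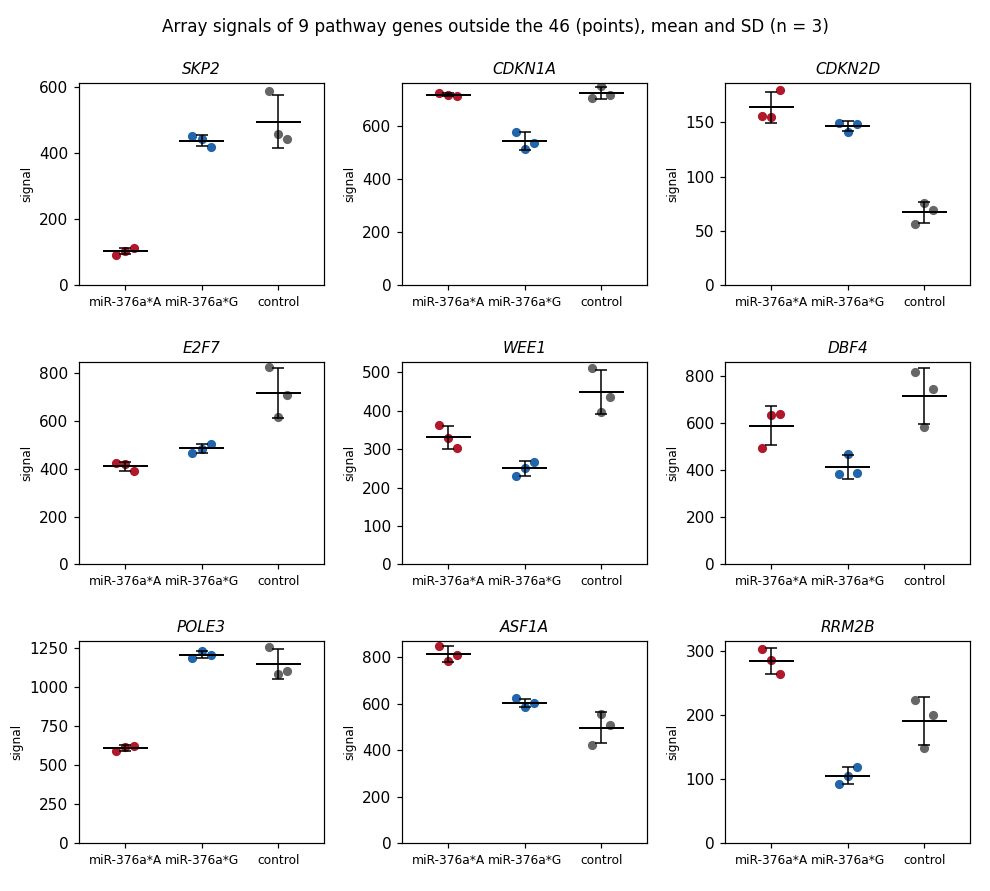
Signal on each array (linear scale from 0) for selected genes outside the module, with the A form, the G form and control from left to right, points for arrays, lines for group means and error bars for the SD (n = 3). SKP2 and POLE3 are low with the A form, CDKN2D is above the control with either form, and RRM2B is lowest with the G form.

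The 33 genes of G2 and mitosis, which act after replication, gave 7 higher and 5 lower with the A form (median 0.04), 22 higher and 0 lower with the G form (median 0.31), and 0 higher and 18 lower between the forms (median -0.27). Of all features, 10.8% were higher and 10% lower with the A form, 11.8% and 13.1% with the G form, and 10.4% and 7.9% between the forms. For the 46 genes of the module the medians were 0.00 with the A form, 0.11 with the G form and -0.17 between the forms. The difference between the lists was not tested. CCNA2, whose cyclin A2 acts in both S phase and G2, rose 2.22-fold (log2 difference 1.15 ± 0.0641, adjusted p = 1.07e-07) with the A form and 2.49-fold (log2 difference 1.32 ± 0.0641, adjusted p = 4.03e-08) with the G form. TOP2A, which untangles copied DNA, rose by 0.51 with the A form and by 0.64 with the G form. Other genes of this list went differently. With the A form KIF11 had -0.40, BUB1B -0.32 and PLK1 -0.28. CDK1 had 0.06 with the A form, 0.46 with the G form and -0.40 between the forms.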

How the data were processed

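RNA of U87 cells was measured on 9 arrays, 3 from transfections with miR-376a*A (the A form), 3 with miR-376a*G (the G form) and 3 with a control miRNA. The deposited values are linear signal intensities, 1 for each of 54675 probe sets and each array. Per the submitters' processing notes GCOS 1.4.0.036 was used in some step. Its signal algorithm and scaling target are not given here. Each array had a 2% trimmed mean of 100.01, so a common shift of all transcripts would not be visible. No pair of arrays was identical.

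The 62 array controls were left out. Of the other probe sets, the platform annotation gave 41091 a single symbol, 1801 several and 11721 none. Signals were taken as log2(signal + 16), which understates the change of dim genes, without further scaling. Probe sets at or above the 40th percentile of the mean (4.771, a signal of 11.3) were kept, and each gene was represented by its brightest probe set. This left 20068 features, 13697 of them with a single symbol. The 46 genes have 91 probe sets, and 19 genes have 1 only. Differences were tested two-sided with limma 3.58.1 (R 4.3.3; linear model and eBayes with a trend) in 1 fit of all 9 arrays, which left 6 residual degrees of freedom beside a prior of 6.48, with Benjamini-Hochberg adjustment over all features. The comparisons of the A form and the G form with the control share the control arrays, so their values are given side by side only.

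The members and lists were chosen with earlier results of these data known. Values per array are given for every gene of the module that passed in any comparison and for CDK2, E2F1 and RRM2. From the lists outside the module, values are given for up to 4 passing genes of smallest p per comparison, and for SKP2, CDKN1A, CDKN1B and CDKN2A. The list of G2 and mitosis is an exception, for which only some genes are given and not by this rule. Promoter and miRNA sequences come from RefSeq tables for GRCh38.p14. Alternatives covered the scaling, offset, filter, variance model, probe set rule, arrays in the fit, replicate block and each array left out. Promoters were searched and figures drawn in Python 3.11.15 (pandas 2.3.3, numpy 2.4.6, matplotlib 3.10.9).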

Additional observations from a re-analysis of the deposited data

How the results depend on the processing

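Under 19 alternatives no gene of the module that passed changed its direction. Of the 19 genes that passed with the A form against the control, 13 passed under every alternative, as did 11 of 16 with the G form and 11 of 19 between the forms. With 1 array left out, the count with the A form ranged from 8 to 11 higher and from 7 to 11 lower, that with the G form from 10 to 17 higher and from 3 to 4 lower, and that of the A form against the G form from 4 to 5 higher and from 7 to 18 lower. Over all features the share in these fits ranged from 7.09% to 12.5% higher and from 7.01% to 10.9% lower with the A form. With the G form it was 8.02% to 13.3% higher and 9.33% to 13.7% lower. Between the forms it was 6.78% to 14.1% higher and 4.84% to 12% lower. The genes lower with the A form than with the G form were 15 on all arrays, and 9, 8 and 8 without A-form replicates 1, 2 and 3, 10 without G-form replicate 1, 7 without G-form replicate 2 and 7 without G-form replicate 3, where a group holds 2 arrays. With only the 2 groups compared in the fit the counts were 10 higher and 7 lower with the A form, 9 and 3 with the G form, and 5 and 22 between the forms, where 12.6% of all features were lower, against 7.9% in the fit of all arrays. Of all features, 8.1% were higher and 7.8% lower with the A form in such a fit, and 9.29% and 10.7% with the G form. Over all features the calls between the forms numbered 3671, and 2441 without A-form replicate 2 and 2331 without G-form replicate 2. The replicate numbers did not pair the arrays, since deviations of same-numbered arrays correlated between -0.110 and 0.0709 and arrays did not all correlate best with their own number. With the replicate block 10 genes were higher and 9 lower with the A form, 11 and 3 with the G form, and 4 and 12 between the forms. Of all features, 10% were then higher and 9.09% lower with the A form. These shares were 11.2% and 12.3% with the G form, and 9.52% and 7.05% between the forms. The block ended the calls of RFC2 and RFC3 with the G form and of CDC6, CDK6 and POLE2 between the forms, and the cause was not tested. With probe sets averaged, passing differences between the forms were 0.25 for RB1, -0.28 for RFC3 and -0.24 for POLA2, against 0.38, -0.42 and -0.47, and that of TK2 with the G form was 0.28, against 0.47. Dim probe sets, and genes read by a single probe set, limit what can be seen.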
